A study of Mus musculus with 6 samples.

Results

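Fc receptors are the proteins through which phagocytes bind the constant part of antibodies. The set described here holds 6 genes of the 55421 in the deposited table, taken by symbol: Fcgr1, Fcgr2b, Fcgr3, Fcgr4, Fcer1g and Fcgrt. RNA sequencing was done on microglia, brain-resident macrophages, sorted by flow cytometry on CD45 and CD11b after removal of myelin. The 3 libraries labelled KO came from C57BL/6 mice of 4 to 5 weeks with loxP sites in both alleles of Qk and a tamoxifen-dependent Cre (Cre-ERT2) in the Cx3cr1 locus. The 3 libraries labelled WT came from C57BL/6 mice of the same age with the same floxed Qk alleles and no Cre listed in the genotype. Presence of Cre and the intended loss of QKI, an RNA-binding protein of splicing and messenger RNA stability, therefore cannot be told apart, and the labels give no tamoxifen treatment. No label says that libraries within a group are from separate mice, so the p-values measure the spread between these libraries only.

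Microglia carry several receptors for immunoglobulin G (IgG). FcγRI, FcγRIII and FcγRIV, encoded by Fcgr1, Fcgr3 and Fcgr4, bind IgG and pass the signal on through the common gamma chain encoded by Fcer1g, whose activation motif (ITAM) recruits the kinase Syk. FcγRIIB, encoded by Fcgr2b, is the inhibitory counterpart: its inhibitory motif (ITIM) recruits the lipid phosphatase SHIP1 and dampens ITAM signals. Fcgrt encodes FcRn, which pairs with beta-2 microglobulin and recycles IgG inside the cell rather than triggering phagocytosis.

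The libraries held 56988261 to 77199936 recovered reads each, and the values below are normalised reads, which the authors scaled to a common total. The targeted gene went against its label: Qk had 24768 ± 1073 normalised reads in the libraries labelled KO and 11632 ± 800 in those labelled WT (SD, n = 3 each). Cx3cr1, whose locus carries the Cre, had 58308 ± 4848 and 246161 ± 11084 in the same order. Directions are therefore given by label, labelled KO against labelled WT. The microglial markers Csf1r and Tmem119 were among the highest values of the marker lists in both groups. Of 10 microglial markers 7 were lower in the libraries labelled KO (6 lower and 2 higher with the TMM factors described below). P2ry12 differed most of the 10, with means of 21842 and 147375 normalised reads in the libraries labelled KO and WT. Neutrophil markers summed to 55.4 to 118 normalised reads in the libraries labelled KO and 1894 to 16868 in those labelled WT, where library C was the highest. Of 11 monocyte markers 4 were lower and 1 higher by label KO. Of 12 markers of border macrophages 7 were higher and 1 lower, or 5 and 1 without library C labelled WT. The part of these cells in the results was not tested. The gate protein CD11b is encoded by Itgam, which had a log2 fold change of -0.80 (adjusted p = 4.07e-05, limma), and CD45 by Ptprc, at 0.16 (adjusted p = 0.159); Ptprc passed as higher with TMM factors (0.30, adjusted p = 0.038) and with the libraries paired by column letter (adjusted p = 0.0374). In sorted cell populations fewer cells of a type and less RNA per cell cannot be told apart.

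Of the 6 Fc receptor genes, 4 were lower and 1, Fcgr4, was higher in the libraries labelled KO; Fcer1g did not pass. All 6 passed the filter on low values. The share called over all 22472 genes tested was 34.6%, with 23.4% lower and 11.3% higher. Among the 11588 genes with a mean above 100, where all 6 lie, it was 47.8%, with 32.2% lower and 15.7% higher. The test was limma on log2(value + 1), with Benjamini-Hochberg adjustment over all genes tested and a threshold of 0.05. The values of the groups did not overlap for any of the 6, which also held for 47.9% of the genes tested (32.2% with the libraries labelled KO lower and 15.7% with them higher). The median log2 fold change of the set was -0.36, beside -0.15 over all genes tested. With trimmed-mean (TMM) factors the median over all genes was -0.02, the set had 3 lower and 2 higher, and its median was -0.22. Under those factors 30.7% of genes passed, 15.4% in each direction; of those with a mean above 100 it was 42.2%, with 19.7% lower and 22.6% higher.

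Fcgr4, the gene of the low-abundance activating receptor FcγRIV, was the 1 member called higher in the main fit, under the deposited scaling. It lies on the plus strand of chromosome 1 at 171018920 to 171029761 (GRCm38, here and below), in a transcript of 5 exons. Its values were 1135, 927.5 and 910.3 normalised reads in the libraries labelled KO, against 538, 485 and 385 in those labelled WT. The lowest library labelled KO stood well above the highest labelled WT. The group means were 991 ± 125 and 469 ± 77.8 (SD, n = 3 each), 2.11-fold higher in the libraries labelled KO, which limma put at 1.08 on the log2 scale (SE 0.13, adjusted p = 0.000138). Counting error is small beside this, since 638 to 2478 reads lay behind each value. Library C labelled WT, the one with the most neutrophil RNA, had the lowest value; without it the log2 fold change was 0.95 (adjusted p = 0.000258). Other myeloid cells also carry FcγRIV in the mouse. In the libraries labelled KO 7 of 12 border macrophage markers were higher and 1 was lower, with a median log2 fold change of 1.152. Over all genes tested 11.3% were higher and 23.4% lower. Without library C labelled WT 5 of the 12 were higher and 1 lower. Folr2 and Siglec1 were higher at 1.99 and 1.78. The 12 markers summed to 23604 to 26422 normalised reads in the libraries labelled KO and 31807 to 32978 in those labelled WT. Most of this came from Stab1, the 1 marker that was lower. The 11 monocyte markers summed to 829 to 1064 and 562 to 1038 in the same order, with 4 lower and 1 higher, Ms4a4c at 3.31. Of the 10 neutrophil markers tested 9 were lower and 0 higher. The part of these cells in the Fcgr4 value was not tested.

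Fcgr2b, the inhibitory receptor gene, fell most of the set. It lies on chromosome 1, minus strand, from 170958617 to 170976127, in a transcript of 8 exons. Values of 7315, 7106 and 6772 normalised reads in the libraries labelled KO stood against 12046, 11458 and 10941 in those labelled WT. Each group was tight, and the gap between them was several times the spread within either. The means were 7064 ± 273 and 11482 ± 553 (SD, n = 3 each), 1.63-fold lower in the libraries labelled KO, which limma put at -0.70 on the log2 scale (SE 0.07, adjusted p = 2.96e-05). B cells also express Fcgr2b. Of 9 listed B cell genes 5 were tested, with 3 lower and 1 higher in the libraries labelled KO, and the list summed to 12678 to 14482 normalised reads there and 16148 to 17990 in those labelled WT. Most of that was Ighm, the IgM heavy chain gene, with means of 11617 and 15469.6 in the same order. Cd79b was lower, with means of 639.6 and 889.6, and Cd22 higher, with means of 1056 and 496. Pax5 was 0 in every library, and Ms4a1 and Blk had group means of at most 0.62. The part of B cells in the Fcgr2b value was not tested.

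Fcgr3, the gene of the low-affinity activating receptor FcγRIII, was the most abundant of the set by normalised reads. It lies on chromosome 1, minus strand, from 171051175 to 171059403, with 5 exons. In the libraries labelled KO it had 31409, 28023 and 29288 normalised reads, against 39509.8, 37367 and 40053 in those labelled WT. All 3 values of the first group lay below all 3 of the second. The means were 29573 ± 1711 and 38976 ± 1420.3 (SD, n = 3 each), which limma put at -0.40 on the log2 scale (SE 0.08, adjusted p = 0.00264). Reads of Fcgr3 and Fcgr2b can be confused: of the 1298 windows of 50 bases in the Fcgr3 transcript, 166 (12.8%) also occur in transcripts of Fcgr2b. Of the 3495 windows of Fcgr2b, 436 (12.5%) occur in other genes, 241 of them in Cplx2. The sources used here do not say how reads matching several genes were counted. Fcgr1, Fcgr4, Fcer1g and Fcgrt shared 0 such windows with any other annotated gene, and no member shared exonic bases with another gene.

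Fcgr1, the gene of the high-affinity receptor FcγRI, lies apart from the others on chromosome 3, minus strand, from 96282909 to 96293969, with 6 exons. Its values were 13574, 11288 and 13371 normalised reads in the libraries labelled KO, against 16122, 15379 and 15960.2 in those labelled WT. Library B labelled KO was the lowest of the 6, and the groups did not overlap. The means were 12744 ± 1265 and 15820.4 ± 391 (SD, n = 3 each), which limma put at -0.32 on the log2 scale (SE 0.08, adjusted p = 0.0136). With TMM factors it was -0.18 and did not pass (adjusted p = 0.13, limma); in the authors' deposited table it is -0.17 with an adjusted p of 0.13. With the libraries paired by column letter and TMM factors it passed (adjusted p = 0.0424).

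Fcer1g, the common gamma chain that the activating receptors need at the cell surface, lies on chromosome 1, minus strand, from 171229579 to 171234307. In the libraries labelled KO it had 14686, 13861 and 13792 normalised reads, against 13454, 12026 and 12906 in those labelled WT. The groups came close without overlapping. The means were 14113 ± 497 and 12796 ± 720.4 (SD, n = 3 each), and the log2 fold change of 0.14 did not pass (SE 0.07, 95% interval -0.02 to 0.30, adjusted p = 0.152). With TMM factors it was 0.28 and passed as higher (adjusted p = 0.0171, limma), and it passed at 0.14 with the libraries paired by column letter (adjusted p = 0.0465). In the authors' deposited table it is 0.28 with an adjusted p of 0.00226. Over the 19 alternatives run its log2 fold change lay between 0.10 and 0.28. Natural killer and mast cells also use the gamma chain. Their 7 listed markers each summed to at most 5.5 and 3.33 normalised reads in the libraries labelled KO. In those labelled WT they summed to at most 14.2 and 15.7. Ncr1, Gzma, Fcer1a and Cma1 were at 0 in every library. Neutrophil markers summed to 55.4 to 118 in the libraries labelled KO and 1894 to 16868 in those labelled WT. Some monocyte and border macrophage markers also differed by label, as given above. The part of any of these cells in the Fcer1g value was not tested.

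Fcgrt, the gene of the IgG-recycling receptor FcRn, lies on chromosome 7, minus strand, from 45092990 to 45103851. Values of 3098, 2686 and 3007 normalised reads in the libraries labelled KO stood against 3852, 3839 and 4064 in those labelled WT. The means were 2931 ± 217 and 3918 ± 126 (SD, n = 3 each), which limma put at -0.42 on the log2 scale (SE 0.07, adjusted p = 0.00156). Its partner went the other way: B2m, the gene of beta-2 microglobulin, which also serves the class I molecules, had 103317 ± 8473 normalised reads in the libraries labelled KO and 52946 ± 3118 in those labelled WT, or 0.96 on the log2 scale (adjusted p = 2.4e-05). Endothelial cells also carry FcRn. Of their 10 listed markers 7 were lower and 0 higher in the libraries labelled KO, beside 23.4% and 11.3% over all genes tested. With TMM factors, or without library C labelled WT, 5 were lower. The 10 markers summed to 1103 to 1268 normalised reads in the libraries labelled KO and 2438 to 4328 in those labelled WT. Pecam1 was the largest of them in every library, with means of 457 and 1722 in the same order. Kdr, the next by mean, had 366 and 363. Without library C labelled WT, which held the highest endothelial sum, Fcgrt had a log2 fold change of -0.39 (adjusted p = 0.00804). Libraries A and B labelled WT, which remain in that fit, had endothelial sums of 2438 and 2589. The part of endothelial cells in the Fcgrt value was not tested.

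**Figure D1:**
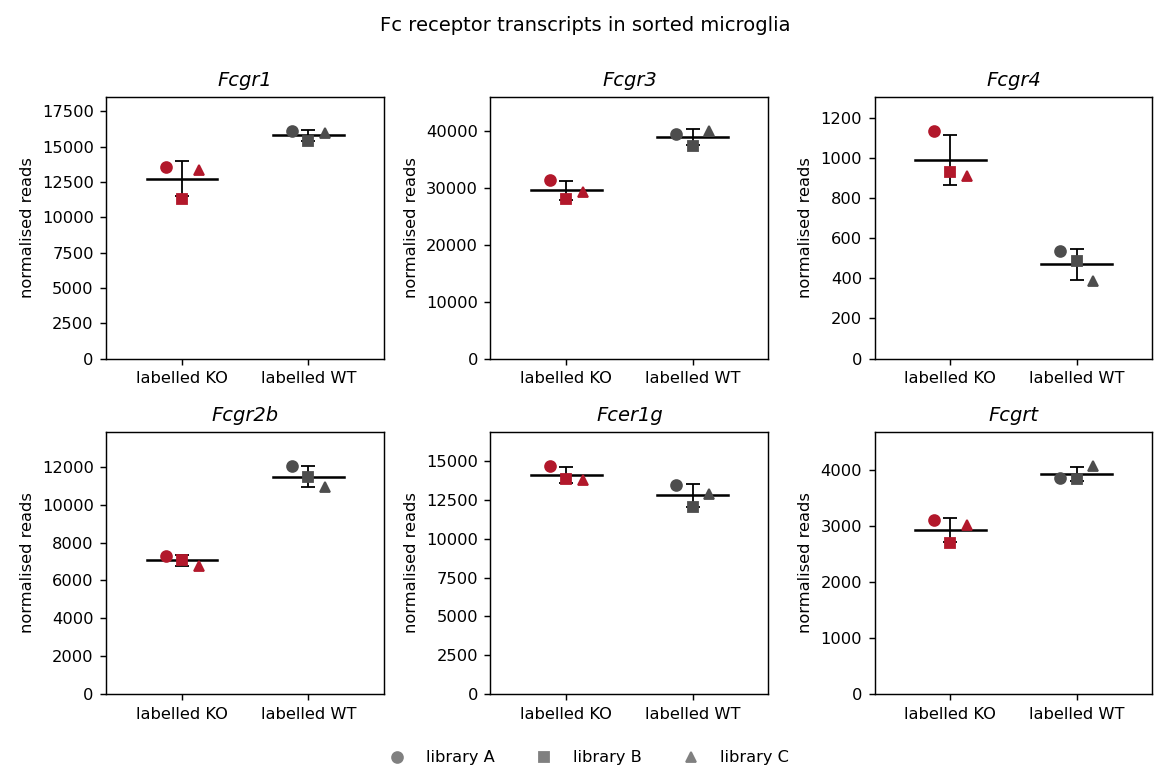
Normalised reads (y axis, from 0) of the 6 Fc receptor genes in the libraries labelled KO (red, left) and labelled WT (grey, right); points are libraries A, B and C, lines the group means and bars the SD (n = 3 each). Fcgr4 is higher in the libraries labelled KO, 991 against 469 on average, Fcgr1, Fcgr2b, Fcgr3 and Fcgrt are lower there, and the values of Fcer1g lie closest together.

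The plot of fold changes under both scalings sets the deposited scaling beside TMM factors. The change of scaling shifted every member by about the same amount, so the order of the members did not depend on it. Fcgr4 and Fcgr2b kept their calls at 1.22 (adjusted p = 0.000199) and -0.56 (adjusted p = 0.000484) with TMM factors. Fcgr3 and Fcgrt also passed, at -0.26 (adjusted p = 0.0297) and -0.28 (adjusted p = 0.0124).

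**Figure D2:**
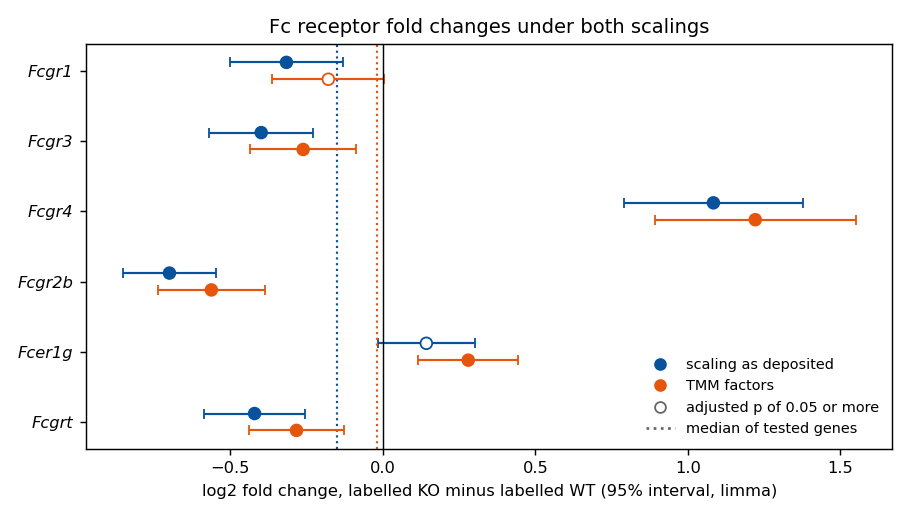
Log2 fold changes (x axis, labelled KO minus labelled WT) of the 6 genes with 95% intervals from limma under the deposited scaling (blue) and TMM factors (orange); open points had an adjusted p of 0.05 or more and dotted lines mark the median of all genes tested, -0.15 and -0.02. Each gene keeps its sign, and of these 2 fits Fcgr1 passes under the deposited scaling and Fcer1g with TMM factors.

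Levels of different genes were compared per kilobase of the transcript that the table lists. On that scale Fcgr3 was first in both groups, followed by Fcer1g, Fcgr1, Fcgr2b, Fcgrt and Fcgr4. In the libraries labelled KO, Fcgr3 and Fcer1g had ranges that overlapped, although Fcgr3 was the higher in each of the 3 libraries, at 22103 ± 1278 and 20939 ± 737 normalised reads per kilobase (SD, n = 3 each). They were apart in the libraries labelled WT, at 29130.3 ± 1062 and 18985 ± 1069. Fcgr1 had 4943 ± 491 normalised reads per kilobase in the libraries labelled KO and 6137 ± 152 in those labelled WT. Fcgr2b had 2002 ± 77.5 and 3253.5 ± 157, in the same order, and Fcgrt 1668 ± 123 and 2230.02 ± 71.9. Fcgr4 remained the least abundant, at 795 ± 100 in the libraries labelled KO against 376 ± 62.4 in those labelled WT.

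Ratios between members within a library do not depend on how libraries were scaled. The summed level per kilobase of the activating receptors Fcgr1, Fcgr3 and Fcgr4 over that of inhibitory Fcgr2b was 14.3, 12.9 and 14.5 in the libraries labelled KO, against 10.6, 10.6 and 11.8 in those labelled WT. The ratio was higher in each library labelled KO than in any labelled WT, with means of 13.9 ± 0.843 and 10.97 ± 0.675 (SD, n = 3 each). Both parts of this ratio were lower in the libraries labelled KO, the inhibitory one more so. The sum of the 4 IgG receptor genes was 29843 ± 1824 normalised reads per kilobase in the libraries labelled KO and 38897 ± 1186 in those labelled WT.

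Fcgr4 moved most within the family. Its ratio to Fcgr2b was 0.439, 0.369 and 0.380 in the libraries labelled KO, against 0.126, 0.120 and 0.0995 in those labelled WT, 3.44-fold higher by the means. To Fcgr3 it was 2.77-fold higher, at 0.0359 ± 0.00273 in the libraries labelled KO and 0.0129 ± 0.00231 in those labelled WT (SD, n = 3 each). It nonetheless made up only 2.66% ± 0.207 of the summed IgG receptor level in the libraries labelled KO, against 0.968% ± 0.165 in those labelled WT. The share of Fcgr3 overlapped between the groups, at 74.1% ± 0.479 and 74.9% ± 0.724 in the same order. Fcer1g stood at 0.735, 0.789 and 0.736 of the summed activating receptors in the libraries labelled KO, against 0.551, 0.521 and 0.526 in those labelled WT. Because the members were chosen with earlier results known, these ratios are given without a test.

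**Figure D3:**
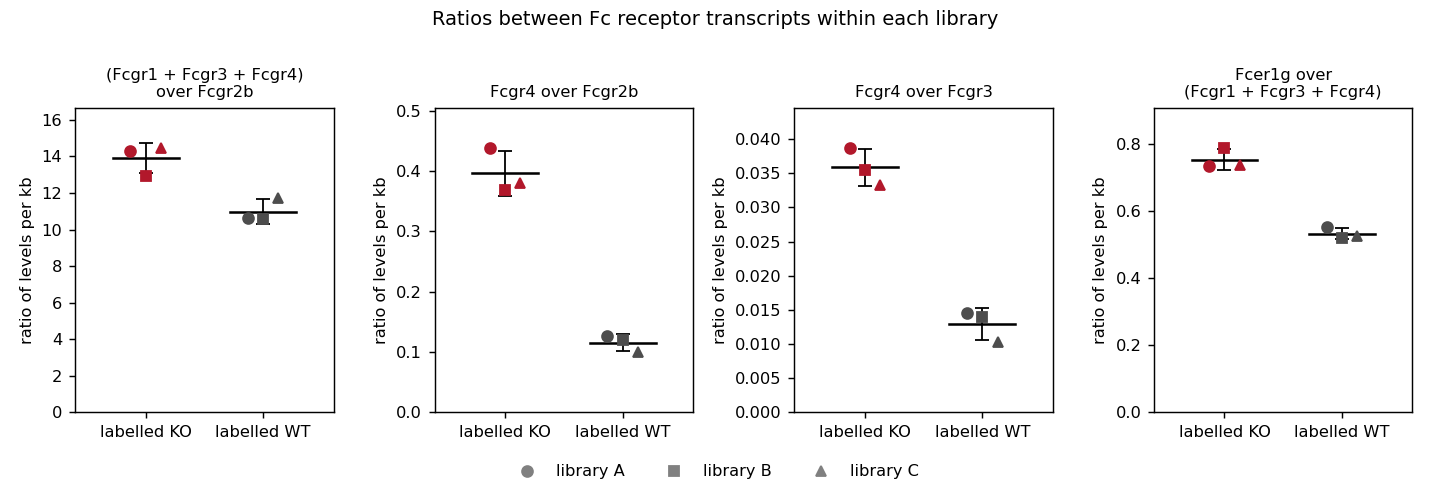
Ratios of levels per kilobase (y axes, from 0) within each library labelled KO (red, left) and labelled WT (grey, right); points are libraries, lines means and bars the SD (n = 3 each). In each panel the 3 libraries labelled KO lie above the 3 labelled WT; the means of activating over inhibitory receptors are 13.9 and 10.97.

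The promoters of 3 members are shown because Fcgr4 rose, Fcgr1 is a textbook target of interferon gamma, and Fcgr2b fell most. Each is the RefSeq sequence (GRCm38.p6) from 250 bases before to 50 bases after an annotated start site, and all 6 members matched an entry. Capitals mark GAGGAA, the core bound by the myeloid factor PU.1, TTCNNNGAA, the gamma-activated site (GAS) of interferon gamma target genes, and GAAA, any 2 bases and GAAA, the core of the interferon-stimulated response element (ISRE). Both strands were searched, so GAGGAA on the other strand reads TTCCTC. The regions are chr1:171018676-171018975 on the plus strand for Fcgr4, chr3:96293920-96294219 on the minus strand for Fcgr1 and chr1:170976022-170976321 on the minus strand for Fcgr2b.
Fcgr4: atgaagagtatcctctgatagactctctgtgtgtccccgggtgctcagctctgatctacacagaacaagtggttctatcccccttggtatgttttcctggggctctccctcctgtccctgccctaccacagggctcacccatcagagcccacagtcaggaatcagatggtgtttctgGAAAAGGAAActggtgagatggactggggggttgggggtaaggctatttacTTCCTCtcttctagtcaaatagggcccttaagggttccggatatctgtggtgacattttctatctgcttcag
Fcgr1: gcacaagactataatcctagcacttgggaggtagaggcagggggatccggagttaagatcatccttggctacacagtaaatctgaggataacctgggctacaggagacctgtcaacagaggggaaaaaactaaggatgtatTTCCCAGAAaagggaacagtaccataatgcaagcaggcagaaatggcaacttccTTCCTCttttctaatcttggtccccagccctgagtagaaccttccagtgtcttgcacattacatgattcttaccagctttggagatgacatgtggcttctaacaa
Fcgr2b: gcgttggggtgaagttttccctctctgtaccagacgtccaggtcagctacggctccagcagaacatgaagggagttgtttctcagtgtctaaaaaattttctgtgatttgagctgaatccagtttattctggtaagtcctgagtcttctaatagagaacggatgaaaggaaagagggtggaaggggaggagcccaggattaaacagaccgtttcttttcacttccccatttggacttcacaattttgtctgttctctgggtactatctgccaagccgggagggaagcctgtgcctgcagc

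The Fcgr4 promoter held the ISRE letters GAAAAGGAAA, starting 73 bases before the start site, and 1 PU.1 core starting 22 bases before it. In Fcgr1 the GAS letters TTCCCAGAA started 109 bases before the start site, with 1 PU.1 core at 55 bases. Both listed promoters of Fcgr3 held the same PU.1 core. Fcgr2b, Fcer1g and Fcgrt had no match in these windows. Over all 32851 listed promoters 28.3% held GAGGAA, 8.30% the GAS letters and 3.44% the ISRE letters; the matches in the members do not overlap each other. A match describes letters only. What binds there was not measured.

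QKI binds RNA with the core ACUAAC or ACUAAU, written here with T. Of the 6 transcripts only that of Fcgr2b held such letters on its sense strand, at positions 1304 and 3471 of 3544. They are shown with 10 bases on each side and the core in capitals.
Fcgr2b, position 1304: ggttgactgtACTAATgactcccata
Fcgr2b, position 3471: ttcatttttcACTAACatagtccaga

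Long transcripts hold these letters more often. Among genes tested, 51.6% of the 4404 transcripts within 20% of its length held 1 or more, against 22.2% of the 2286 transcripts as long as that of Fcgr4. Binding was not measured here.

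The nearest relatives of the set were then measured, from a list of 14 further Fc receptors, Fc receptor-like genes and partners. Of these, 6 passed the filter on low values. Of the 6, 2 were lower in the libraries labelled KO, 1 was higher and 3 did not pass. With TMM factors, or without library B labelled KO, 2 were higher. The shares over all genes tested were 23.4% lower and 11.3% higher, and 15.4% in each direction with TMM factors. Fcrls, an Fc receptor-like gene typical of microglia, fell 2.54-fold, with 41309 ± 4760.4 normalised reads in the libraries labelled KO and 104719.6 ± 2126 in those labelled WT (SD, n = 3 each; log2 fold change -1.35, SE 0.10, adjusted p = 3.18e-06). Fcrl1, a member of the same family best known from B cells, had 465 ± 27.0 and 1854 ± 36.3, in the same order, or -1.99 on the log2 scale (SE 0.08, adjusted p = 6.93e-08). The authors' deposited list of changed genes holds Fcrl1 and 0 of the 6 members. Its cut is not known here, and absence from it does not mean a large p. In the authors' deposited comparison adjusted p was 3.19e-13 for Fcgr4, 2.65e-09 for Fcgr2b and 0.00386 for Fcgr3. It was 0.00411 for Fcgrt, 0.00226 for Fcer1g and 0.13 for Fcgr1. Fcrls and B2m, at 3.18e-33 and 8.39e-28 there, are also outside the list. B2m, given above with Fcgrt, was the gene that rose.

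Trim21, the gene of a cytosolic Fc receptor that binds antibody-coated virus inside the cell, was at 882 ± 88.8 normalised reads in the libraries labelled KO and 774 ± 31.2 in those labelled WT. Its log2 fold change of 0.18 did not pass (adjusted p = 0.159), and with TMM factors it passed at 0.32 (adjusted p = 0.0198). Fcrlb, at 24.3 ± 2.80 and 18.2 ± 6.63 in the same order, and Fcrla, at 2.07 ± 0.853 and 1.16 ± 1.64, were not called either (adjusted p = 0.313 for Fcrlb and 0.396 for Fcrla). Receptors for other antibody classes were at or near 0: Fcer1a, the IgE-binding chain of mast cells, and Fcamr, Fcmr and Pigr, receptors for IgM or IgA, had 0 reads in every library. A count of 0 allows up to 3 reads, which is 1.34 to 1.81 normalised reads by library. The listed transcript of Fcmr is a processed transcript of 543 bases, 1 of 4 annotated for the gene. That of Pigr has 777 bases and is 1 of 3. Whether reads from the other transcripts of these genes were counted is not known here.

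Other receptors tied to the gamma chain were few in these cells. Of 12 listed, 11 were in the table under the listed symbol and 8 passed the filter. In the libraries labelled KO 4 were higher and 0 lower, also with TMM factors. Over all genes tested 11.3% were higher and 23.4% lower, and 15.4% in each direction with TMM factors. With the filter at the median 2 of the list were higher. Il3ra, the alpha chain of the interleukin 3 receptor, rose 3.16-fold, with 509.8 ± 41.9 normalised reads in the libraries labelled KO and 161 ± 6.35 in those labelled WT (log2 fold change 1.65, SE 0.11, adjusted p = 1.86e-06). Csf2rb, the beta chain shared by the receptors for interleukin 3, interleukin 5 and GM-CSF, had 6977 ± 561 and 5016 ± 96.3 in the same order (adjusted p = 0.000754). Clec4n, the Dectin-2 gene, had 27.9, 14.4 and 21.6 normalised reads in the libraries labelled KO against 6.58, 1.78 and 3.62 in those labelled WT (adjusted p = 0.00351). Pira2, an activating paired receptor gene, was at 8.45 ± 1.42 in the libraries labelled KO (adjusted p = 0.00648), and its 1.73 ± 0.352 in those labelled WT lay at the limit that a count of 0 allows.

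Of 20 listed signalling genes behind the ITAM, all tested, 5 were higher and 3 lower, no larger a share than the 47.8% called among all genes with a mean above 100, and the median was -0.09 (log2); with TMM factors 7 were higher and 1 lower, with a median of 0.05. With the libraries paired by column letter 7 were lower. Lyn, the Src family kinase that phosphorylates both ITAM and ITIM, fell 1.48-fold, with 15585 ± 508 normalised reads in the libraries labelled KO and 23125 ± 1106 in those labelled WT (log2 fold change -0.57, SE 0.07, adjusted p = 0.000158). Lat2, an adaptor of the same pathway, rose 1.48-fold, with 6183 ± 416 and 4180.003 ± 230 in the same order (log2 fold change 0.56, SE 0.08, adjusted p = 0.00025). Src, another kinase of the Lyn family, rose by 0.32 on the log2 scale (adjusted p = 0.00511). Syk, the kinase that docks on the phosphorylated ITAM, was lower at -0.32 (adjusted p = 0.00451); with TMM factors it was -0.18 and did not pass (adjusted p = 0.0652).

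Genes of the inhibitory branch were lower in 4 and higher in 2 of 9 listed, all tested, beside 32.2% lower and 15.7% higher among all genes with a mean above 100, and the median was -0.17. TMM factors gave 3 lower and 3 higher. Without library C labelled KO 1 was higher. Inpp5d encodes SHIP1, the phosphatase that FcγRIIB recruits. In the libraries labelled KO it had 31659 ± 1877 normalised reads, and in those labelled WT 42012 ± 2422, -0.41 on the log2 scale (SE 0.08, adjusted p = 0.00324). The membrane adaptor gene Pag1 and the docking protein gene Dok3 were lower too, at -0.48 (adjusted p = 0.00128) and -0.50 (adjusted p = 0.000736). Dok2, a relative of Dok3, was higher, with 94.5 ± 19.99 and 40.2 ± 6.47 normalised reads in the libraries labelled KO and WT (log2 fold change 1.203, adjusted p = 0.00193).

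The next list held 13 genes, all tested: transcription factors known to act on Fc receptor genes, and the interferon receptors. In the libraries labelled KO 7 were higher, 2 lower and 4 not called, beside the same 15.7% higher and 32.2% lower. The median was 0.26, and with TMM factors 8 were higher and 1 lower. Without library A or C labelled KO, or A or C labelled WT, 1 was lower. Spi1, the gene of PU.1, was lower at -0.22 on the log2 scale (adjusted p = 0.026, limma). With TMM factors Spi1 was at -0.08 and did not pass (adjusted p = 0.395, limma). Cebpb, the gene of a myeloid factor of the C/EBP family, rose 3.62-fold, with 17807 ± 387 normalised reads in the libraries labelled KO and 4919 ± 1013 in those labelled WT (log2 fold change 1.88, adjusted p = 1.68e-06). Stat2, a part of the complex that binds the ISRE, was higher by 1.003 on the log2 scale (adjusted p = 1.51e-05). Ifngr1, the ligand-binding chain of the interferon gamma receptor, fell 1.48-fold, with 16632.5 ± 719.9 normalised reads in the libraries labelled KO and 24547 ± 635 in those labelled WT (adjusted p = 0.000151). A link between these genes and the Fc receptors was not tested.

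**Figure D4:**
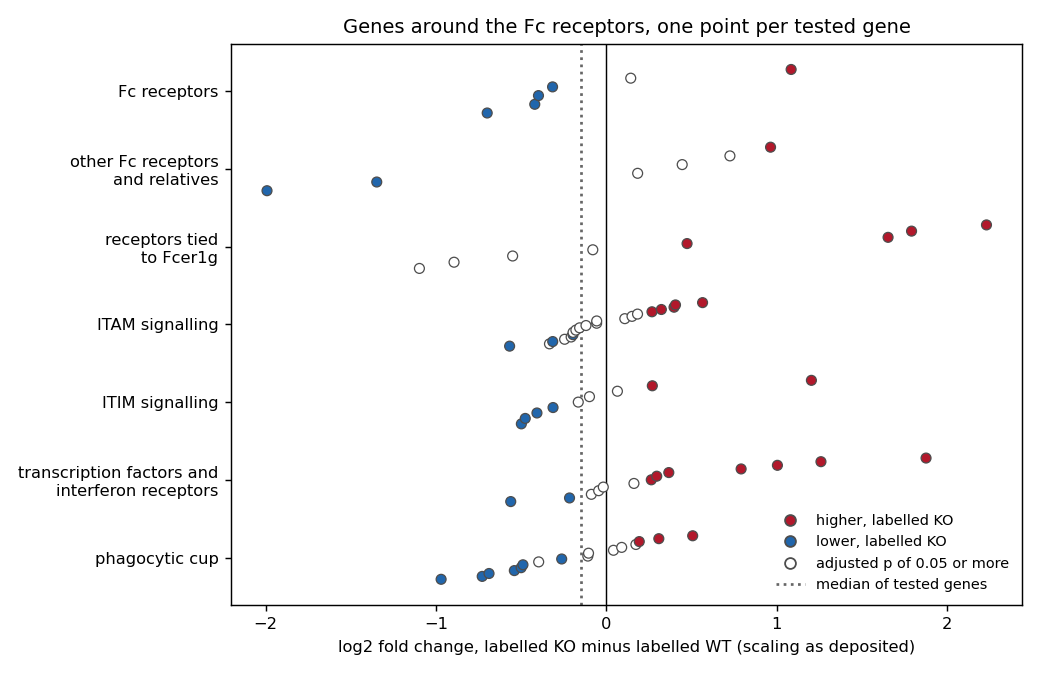
Log2 fold changes (x axis, labelled KO minus labelled WT, deposited scaling) of each tested gene by list (y axis); red points were higher and blue points lower in the libraries labelled KO at an adjusted p under 0.05 by limma, white points did not pass, and the dotted line marks the median of all genes tested, -0.15. The 2 lowest points, at -1.99 and -1.35, are Fcrl1 and Fcrls; with TMM factors, whose median is -0.02, points between that line and 0 can change sign.

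The patterns of the members over the 6 libraries were matched to those of 10398 genes with a mean above 100, the number left once gene models named only by a number (Gm, Rik) were set aside, by Pearson's r of log2(value + 1). With groups that do not overlap, such values are mostly the difference between groups, and they are given as a description. Fcgr4 was matched by mt-Co1 at 0.999. Dipk1a and Fam91a1 were most like Fcgr2b (both 0.998), Psat1 and Psmc3 most like Fcgr3 (both 0.999), and Mrm2 and Casp6 most like Fcgr1 (0.998 and 0.997). Prdx1 and Ssr4 were most like Fcer1g (0.993 and 0.991), and Rnase4 and Adprh most like Fcgrt (both 0.999). Many other genes also had a high r with each member, so the genes named are not particular partners.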

How the data were processed

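RNA of 6 libraries of sorted microglia, 3 labelled KO and 3 labelled WT, was analysed from the deposited table. The submitters' processing notes name Trimmomatic 0.39, STAR 2.7.1a, HOMER 4.11.1, DESeq2 1.26.0 and mm10/GRCm38, without order or parameters; the sources used here do not say whether counting used strand. The deposited signal is a read number per gene that the authors scaled to a column sum of 34360040 to 34360054. Values are multiples of what 1 read is worth (100% of them to a tolerance of 0.1 read), and whole reads were recovered from this. The log2 fold changes and p-values of the authors' own comparison were deposited in the same table. Columns named Control and Treatment were taken as WT and KO from the group names; the letters A to C match no number in the labels.

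One row per symbol was kept, leaving out 117 rows. Genes with a mean above 1 entered a fit of log2(value + 1), KO minus WT, in limma 3.58.1 with a trend (R 4.3.3) and Benjamini-Hochberg adjustment; such fold changes understate the change of low genes, and folds are ratios of group means. Deviations from the group mean correlated between libraries of the same letter at 0.61, 0.20 and 0.30 over 11588 genes. Libraries of different letters were not compared in this way, so these values cannot show that letters pair libraries. On that evidence alone letters were taken as pairs in an alternative fit, and the unpaired fit is the main one. Members and lists were chosen with earlier results of these data known. Of each list up to 4 called genes with the smallest p are named, with the tested relatives of the Fc receptors; other genes were named after their values were seen, and some results under this rule are not reported here. The fit was tested on simulated data. Alternatives were pseudocounts of 0.1 and 5, other filters, TMM factors, edgeR 4.0.16, DESeq2 1.42.0 and limma-voom on recovered reads, a threshold of 0.01, each library left out and a block by letter; the block together with TMM factors, in limma and in edgeR, was added after seeing the data. Transcript sequences and exons came from GENCODE M21.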

Additional observations from a re-analysis of the deposited data

How the results depend on the processing

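Fcgr2b, Fcgr3, Fcgr4 and Fcgrt kept their direction and passed in all 19 alternatives run for each, with log2 fold changes of -0.73 to -0.56, -0.44 to -0.26, 0.95 to 1.22 and -0.46 to -0.28. Fcgr1 kept its direction but did not pass with TMM factors (-0.18), edgeR on recovered reads with TMM (-0.18) or RLE factors (-0.17), DESeq2 (-0.17), limma-voom (-0.18) or a threshold of 0.01 (-0.32); adjusted p ran from 0.00161 to 0.155. Fcer1g, which did not pass, passed with TMM factors (0.28), edgeR with TMM (0.28) or RLE factors (0.28), DESeq2 (0.28), limma-voom (0.28), the replicate block (0.14), the block with TMM factors (0.28) and the block with edgeR (0.28); adjusted p ran from 0.00236 to 0.401. The median of all genes was -0.02 in each setting where Fcer1g passed except the replicate block alone. There it was -0.15, as with the deposited scaling. With a single library left out, Fcgr1 ran from -0.36 to -0.23 and Fcer1g from 0.10 to 0.18 with calls as in the full set. The replicate block raised the genes called over the table to 9378, beside 7781 without it, and changed no other member's call. At a threshold of 0.01, 4710 genes passed, and 6213 to 6747 with a library left out.

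Of 204 list counts under the alternatives 173 stayed within 1.5 times. With TMM factors, edgeR (TMM or RLE), DESeq2 and limma-voom alike, 2 relatives of the Fc receptors were higher, 1 ITAM gene and 1 regulator lower, and 5 phagocytic cup genes higher. The filter at the median left 2 gamma chain partners and 1 ITIM gene higher, and the threshold of 0.01 left 1 ITIM gene higher and 1 regulator lower. The block gave 7 ITAM genes lower. With single libraries left out, relatives higher numbered 1 to 2, ITIM genes higher 1 to 2 and regulators lower 1 to 2. Without division by length the activating to inhibitory ratio was 6.13 in the libraries labelled KO and 4.82 in those labelled WT, and that of Fcer1g to the activating receptors 0.326 and 0.231; with a library left out the activating to inhibitory ratio ran from 13.6 to 14.4 in the libraries labelled KO and from 10.6 to 11.2 in those labelled WT, and that of Fcer1g from 0.735 to 0.763 and from 0.523 to 0.538.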

Other observations

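Genes of the phagocytic cup, the actin structure that closes around an antibody-coated particle, were measured as a further list. Of 16 genes, all tested, 7 were lower and 3 higher in the libraries labelled KO, with a median of -0.19 (log2). Among all genes with a mean above 100 the shares were 32.2% lower and 15.7% higher. TMM factors gave 6 lower and 5 higher, and a median of -0.05, beside 19.7% lower and 22.6% higher among those genes. Elmo1, which with a Dock protein activates Rac during engulfment, fell 1.96-fold, with 7766 ± 745 normalised reads in the libraries labelled KO and 15218 ± 1406 in those labelled WT (SD, n = 3 each; adjusted p = 2.56e-05, limma). Wasf2, an activator of actin branching, had 13106 ± 1224 and 21697 ± 1438 in the same order (log2 fold change -0.73, adjusted p = 0.000119). The adaptor gene Crkl and the membrane-linking myosin gene Myo1e were lower as well, at -0.69 (adjusted p = 9.36e-05) and -0.54 (adjusted p = 0.000339).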
